A study of Mus musculus with 6 samples.

Results

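The enzymes that build triglycerides and phospholipids were examined as a group of 10 transcripts in mouse liver, Gpam, Agpat2, Lpin1, Lpin2, Dgat1, Dgat2, Mogat1, Pemt, Pcyt1a and Lpcat3. They were taken by gene name from a table of 29734 genes, each name matched a single row, and all 10 were among the 18931 genes with enough counts to be tested. The livers came from male mice that received a Western diet, rich in fat and sugar, for 20 weeks from the age of 8 weeks. One genotype was Prdx1 C52S, with serine in place of cysteine 52 of the peroxide-reducing enzyme peroxiredoxin 1 (3 libraries, numbered 1, 2 and 4), and the other was WT (3 libraries, numbered 6, 8 and 9). The labels do not say whether the allele was homozygous or the groups littermates. No group without the diet was analysed here. Replicate libraries are labelled as separate samples, and nothing says that each came from a separate animal, so that p-values measure the spread between these libraries.

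Hepatocytes assemble triglyceride by adding fatty acids to glycerol 3-phosphate in consecutive steps, in which acyltransferases make lysophosphatidic acid and then phosphatidic acid, lipins remove the phosphate, and diacylglycerol acyltransferases add the last fatty acid. A side route starts from monoacylglycerol. Diacylglycerol and phosphatidic acid are also the branch points to phospholipids, and phosphatidylcholine can be made from choline or by methylation of phosphatidylethanolamine. The liver stores the products in lipid droplets or secretes them in very low density lipoprotein, whose surface needs phosphatidylcholine.

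The glycerol 3-phosphate acyltransferase transcript Gpam stood furthest apart between the genotypes, at 2.78 times the WT mean FPKM in Prdx1 C52S livers, followed among non-overlapping genes by the lysophosphatidic acid acyltransferase Agpat2 at 1.36 times. Pemt, which methylates phosphatidylethanolamine, was also higher in each Prdx1 C52S library than in each WT library, but by a factor of 1.07. The 2 diacylglycerol acyltransferases, Pcyt1a and Lpcat3 had overlapping groups and mean FPKM ratios from 0.887 to 1.10, and the lipin Lpin1 differed in mean through a single WT library. No member passed an adjusted p of 0.05 in the edgeR quasi-likelihood test over all genes, which called 0.0% of the 18931 genes. At an unadjusted p under 0.05, edgeR had 3 members higher and 0 lower (Gpam, Agpat2 and Pemt), beside 11.5% of all genes higher and 14.8% lower. The FPKM ranges of the genotypes did not overlap for 3 of 10 members, all higher in Prdx1 C52S, beside 6.09% of all genes higher and 36.7% lower. DESeq2 called the same 3 members higher (7.39% of all genes), voom with library quality weights called Gpam and Agpat2 (5.4%), and edgeR without WT 8 called Agpat2 alone (2.7%), with 0 members lower in each of these fits.

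Levels are FPKM, that is, fragments per kilobase of transcript scaled to the depth of the library, and fold changes are log2 of Prdx1 C52S over WT from edgeR on the estimated counts with TMM scaling, with the standard error derived from the test. Library totals lay between 60326469 and 76164949 estimated counts, at about 4 counts a fragment, and member counts ran from 183 to 77707. TMM factors were 0.88 to 0.92 in Prdx1 C52S libraries and 1.03 to 1.28 in WT libraries, so that genes of equal FPKM get positive fold changes. With library totals alone the median log2 fold change of all genes was -0.34 in place of -0.03, and 7 members were positive and 3 negative in place of 9 and 1. The median over the 10 members was 0.34 with TMM scaling and 0.06 with library totals. WT 8 stood apart. The 7 pericentral hepatocyte markers summed to 2714 to 3406 FPKM in Prdx1 C52S libraries, against 602 in WT 8 and 2138 and 2244 in the other WT libraries. The 6 bile duct markers summed to 63.2 to 132 FPKM in Prdx1 C52S libraries, against 830 in WT 8 and 229 and 358 in the other WT libraries. Most of each sum was Spp1, at 60.1 to 125.5 FPKM in Prdx1 C52S libraries, 736 in WT 8, 220 in WT 9 and 342 in WT 6. Each of the 6 markers was highest in WT 8. The 6 Kupffer cell markers summed to 166 to 214 FPKM in Prdx1 C52S libraries, against 36.3 in WT 8 and 247 and 278 in the other WT libraries. After TMM scaling WT 8 was the lowest library for 9 of the 10 members, and in FPKM for 6. The part of these shifts in the results was not tested, and in bulk tissue fewer cells of a type and less RNA per cell cannot be told apart.

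**Figure D1:**
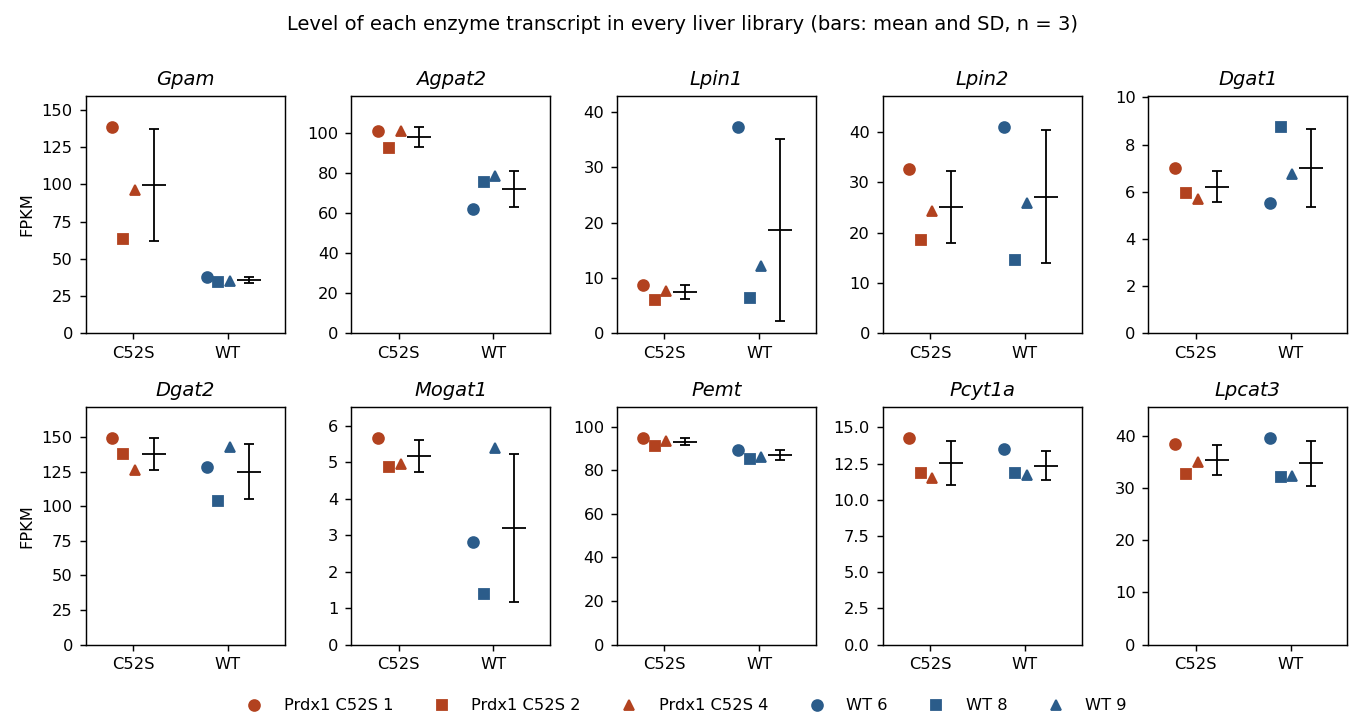
FPKM (y axis, linear from 0) of the 10 enzyme transcripts in each library, with Prdx1 C52S left and WT right in each panel and black bars for the mean and SD of n = 3 libraries. Gpam, Agpat2 and Pemt have groups that do not overlap, while Lpin1 has a single high library, WT 6 at 37.4 FPKM.

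The 7 hepatocyte markers in the table, led by Alb, summed to between 34340 and 36790 FPKM in Prdx1 C52S libraries and between 29490 and 32010 in WT libraries, and the libraries are labelled liver. Alb held most of this sum, and the markers differed in direction. Alb, Apoa2 and Ttr were higher in Prdx1 C52S without overlap. Apoa1 (mean 3063 against 3668 FPKM in WT) and Cps1 (294 against 434) were lower without overlap. Fgb and Hnf4a had lower Prdx1 C52S means with overlapping groups. Adipocytes also express most of the triglyceride enzymes at high levels, so their markers were read beside the members. The droplet coat gene Plin1 lay between 0 and 0.0116 FPKM in Prdx1 C52S libraries and between 0 and 0.006 in WT libraries. The hormone gene Lep was listed at 0 in each Prdx1 C52S library and reached 0.0136 in 1 WT library. The 6 adipocyte genes in the table summed to 32.4 to 119 FPKM in Prdx1 C52S libraries and 17.9 to 31.4 in WT libraries. Most of this sum in Prdx1 C52S libraries was the complement factor gene Cfd, at 39.1, 110 and 24.4 FPKM in Prdx1 C52S 1, 2 and 4, against 12.4, 1.58 and 3.38 FPKM in WT 6, 8 and 9. The other tested adipocyte genes had negative fold changes. The fatty acid binding protein gene Fabp4 was at 6.79, 5.70 and 5.05 FPKM in Prdx1 C52S 1, 2 and 4, against 13.4, 16.1 and 10.4 FPKM in WT 6, 8 and 9 (log2 fold change -0.88, edgeR adjusted p = 0.0601, and adjusted p = 0.0289 without WT 8). The lipase gene Lipe was at -0.30 (edgeR adjusted p = 0.406) and the receptor gene Adrb3 at -0.24 (edgeR adjusted p = 0.571), so that 1 of the 4 tested genes was positive and 3 were negative. The part of adipocytes in the members' levels was not tested.

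Gpam encodes the mitochondrial enzyme that puts the first fatty acid on glycerol 3-phosphate. The gene (ENSMUSG00000024978) lies on the minus strand of chromosome 19, from 55067268 to 55127216 on GRCm38. Its level was 139, 63.4 and 96.5 FPKM in Prdx1 C52S 1, 2 and 4, against 37.9, 34.6 and 35.0 FPKM in WT 6, 8 and 9. The WT libraries lay close together, with a coefficient of variation of 5.02%, while the Prdx1 C52S libraries differed among themselves by a coefficient of variation of 37.9% and all exceeded the highest WT value. The means were 99.6 ± 37.8 and 35.8 ± 1.80 FPKM (SD, n = 3 each), and the log2 fold change was 1.75 (SE 0.29, 95% interval 1.08 to 2.42, edgeR adjusted p = 0.0611). Leaving out any single library kept it between 1.45 and 1.99, at edgeR adjusted p from 0.057 to 0.273. With library totals alone it was 1.47 (edgeR adjusted p = 0.057). Gpam was called by DESeq2 (adjusted p = 6.24e-08), by voom with library quality weights (adjusted p = 0.0193), by edgeR with no filter on low counts (adjusted p = 0.0369) and by limma on log2(FPKM + 0.1) (adjusted p = 0.0487).

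RefSeq gives Gpam a pair of start sites on GRCm38.p6. They are shown because this is the member with the largest fold change and the counts per gene do not separate the starts. Each sequence runs from 250 bases before to 50 bases after the start, on the minus strand, with capitals marking the motifs found. The upstream window is chr19:55127189-55127488 and the internal one chr19:55099428-55099727.
Gpam upstream start: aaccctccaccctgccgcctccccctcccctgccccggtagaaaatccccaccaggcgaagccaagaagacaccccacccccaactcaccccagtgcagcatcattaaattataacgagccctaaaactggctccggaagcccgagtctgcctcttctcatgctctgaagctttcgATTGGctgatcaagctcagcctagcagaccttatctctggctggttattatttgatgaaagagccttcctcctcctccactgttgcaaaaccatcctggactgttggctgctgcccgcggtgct
Gpam internal start: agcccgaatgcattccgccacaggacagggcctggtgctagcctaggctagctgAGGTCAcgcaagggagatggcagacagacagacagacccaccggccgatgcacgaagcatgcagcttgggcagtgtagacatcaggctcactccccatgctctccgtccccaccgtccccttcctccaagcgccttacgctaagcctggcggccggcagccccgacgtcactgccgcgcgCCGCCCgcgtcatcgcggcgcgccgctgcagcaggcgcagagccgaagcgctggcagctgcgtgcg
The motifs searched on both strands were the E-box CACGTG, the sterol regulatory element TCACNCCAC, the CCAAT box, the GC box GGGCGG and the nuclear receptor hexamer AGGTCA. Of 32851 mouse promoter windows of this length, 7.15%, 1.24%, 37.4%, 35.7% and 16.3% hold them in that order. The upstream Gpam window holds a CCAAT box on the opposite strand at bases -74 to -70 from the start. The internal window holds the hexamer AGGTCA at -196 to -191 and a GC box on the opposite strand at -16 to -11. These matches describe letters and say nothing of binding.

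The genes with the patterns most like Gpam over the 6 libraries were Acly and Fasn, the ATP citrate lyase and fatty acid synthase of fatty acid synthesis, and the zinc finger gene Zfp980. Likeness was the root mean square difference in log2 CPM deviation, over 18931 genes, and was 0.21 for Acly, 0.21 for Fasn and 0.25 for Zfp980. Acly had 119, 66.9 and 96.7 FPKM in Prdx1 C52S 1, 2 and 4, against 39.5, 47.8 and 38.8 FPKM in WT 6, 8 and 9. Fasn had 199, 122 and 153 FPKM in Prdx1 C52S 1, 2 and 4, against 65.0, 77.3 and 66.7 FPKM in WT 6, 8 and 9. All 3 genes were chosen for this likeness, and their values are a description. Zfp980 stayed between 0.111 and 0.207 FPKM in Prdx1 C52S libraries and between 0.0618 and 0.0913 in WT libraries.

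Agpat2 encodes the main hepatic and adipose enzyme that acylates lysophosphatidic acid to phosphatidic acid. The gene (ENSMUSG00000026922) lies on the minus strand of chromosome 2, from 26593057 to 26604332. Its level was 101, 92.6 and 101 FPKM in Prdx1 C52S 1, 2 and 4, against 62.2, 75.7 and 78.6 FPKM in WT 6, 8 and 9. The Prdx1 C52S libraries were within 10 FPKM of each other, above a wider WT group whose lowest library was WT 6. The means were 98.4 ± 5.01 and 72.2 ± 8.79 FPKM (SD, n = 3 each), with a log2 fold change of 0.73 (SE 0.14, 95% interval 0.41 to 1.06, edgeR adjusted p = 0.0737). The fit without WT 8 gave 0.67 with an edgeR adjusted p = 0.028, and over the fits that leave out 1 library it ran from 0.67 to 0.87. The other fits that leave out 1 library left Agpat2 uncalled, at edgeR adjusted p from 0.0503 to 0.285. DESeq2 (adjusted p = 3.26e-05) and voom with library quality weights (adjusted p = 0.0123) also called it. Exons of Agpat2 overlap those of Egfl7, an endothelial gene on the other strand, and the labels do not say whether the counting used the strand. Egfl7 lay between 8.38 and 9.81 FPKM in Prdx1 C52S libraries and between 8.37 and 14.8 in WT libraries, with the highest value in WT 8.

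The Agpat2 window, chr2:26604368-26604667 on the minus strand of GRCm38.p6 (RefSeq), is shown because the FPKM ranges of this gene did not overlap either. Its capitals are GC boxes GGGCGG at -42 to -37, -37 to -32 and 25 to 30, of which the first pair shares a base.
Agpat2 start: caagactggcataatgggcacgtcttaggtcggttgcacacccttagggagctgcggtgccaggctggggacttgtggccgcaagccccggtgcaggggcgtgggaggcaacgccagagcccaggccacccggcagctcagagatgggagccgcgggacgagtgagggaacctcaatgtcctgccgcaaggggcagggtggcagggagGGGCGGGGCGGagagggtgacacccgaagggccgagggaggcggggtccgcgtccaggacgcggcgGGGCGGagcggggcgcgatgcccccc
With 72% G and C it is the most GC-rich of the windows printed here, and it shares the GC box, but no other of the 5 motifs, with the internal Gpam window.

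**Figure D2:**
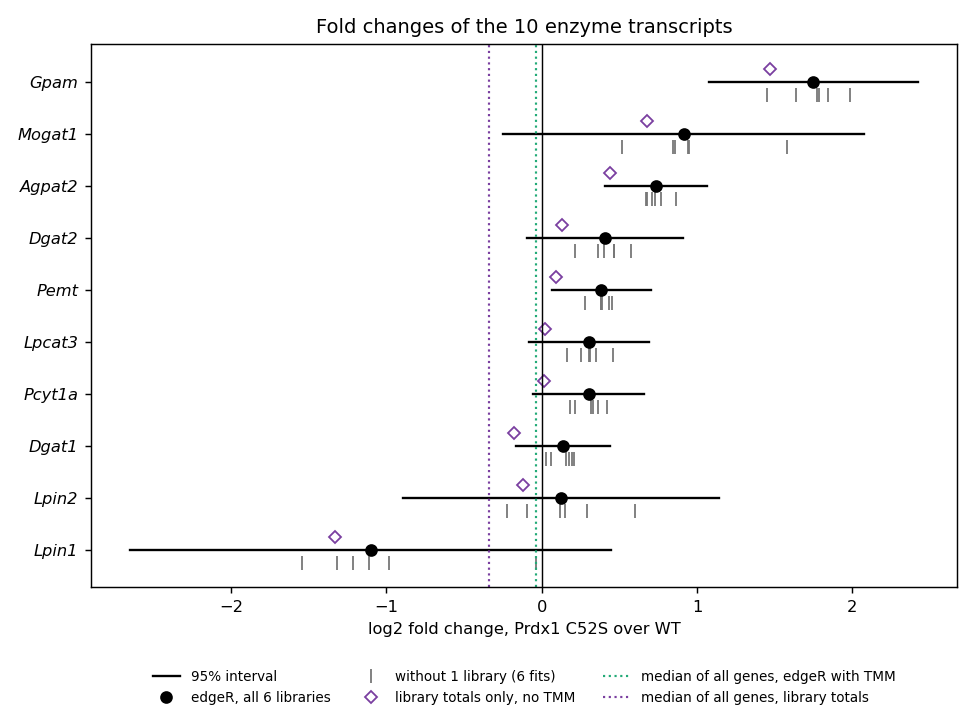
Log2 fold change of Prdx1 C52S over WT (x axis) for each enzyme (y axis), with black points and lines for edgeR and its 95% interval, grey ticks for the 6 fits without 1 library and open diamonds for library totals without TMM. Intervals of Gpam, Agpat2 and Pemt lie above 0, and the Lpin1 interval runs from -2.65 to 0.45 with a tick at -0.03 for the fit without WT 6.

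Lpin1 and Lpin2 encode lipins, which turn phosphatidic acid into diacylglycerol, and lipin 1 also acts in the nucleus as a transcriptional coactivator. Lpin1 (ENSMUSG00000020593, chromosome 12 from 16535669 to 16646966, minus strand) was at 8.74, 6.10 and 7.57 FPKM in Prdx1 C52S 1, 2 and 4, against 37.4, 6.33 and 12.2 FPKM in WT 6, 8 and 9. WT 6 was over 3 times any other library, and WT 8 lay inside the Prdx1 C52S range. The means were 7.47 ± 1.32 and 18.7 ± 16.5 FPKM (SD, n = 3 each). The log2 fold change of -1.10 (SE 0.65, edgeR adjusted p = 0.323) was -0.03 without WT 6 and -1.54 without WT 8. Lpin2 (ENSMUSG00000024052, chromosome 17 from 71182560 to 71249817, plus strand) was at 32.7, 18.5 and 24.2 FPKM in Prdx1 C52S 1, 2 and 4, against 41.1, 14.6 and 25.8 FPKM in WT 6, 8 and 9. WT 6 was its highest and WT 8 its lowest library, and the groups overlapped fully. Its log2 fold change was 0.12 (SE 0.43, 95% interval -0.89 to 1.14, edgeR adjusted p = 0.88), with the sign negative in 6 of 14 alternative fits, among them -0.22 without WT 8 and -0.12 with library totals alone.

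Dgat2 and Dgat1 encode unrelated enzymes that add the last fatty acid, and Dgat2 had the highest level of all members in both groups. Dgat2 (ENSMUSG00000030747, chromosome 7 from 99153658 to 99182719, minus strand) was at 150, 138 and 126 FPKM in Prdx1 C52S 1, 2 and 4, against 128, 104 and 143 FPKM in WT 6, 8 and 9. The groups overlapped, with WT 9 above all Prdx1 C52S libraries but the first, and the log2 fold change was 0.41 (SE 0.22, 95% interval -0.10 to 0.91, edgeR adjusted p = 0.269), or 0.21 without WT 8. Dgat1 (ENSMUSG00000022555, chromosome 15 from 76502015 to 76511951, minus strand) was at 6.99, 5.96 and 5.71 FPKM in Prdx1 C52S 1, 2 and 4, against 5.51, 8.76 and 6.77 FPKM in WT 6, 8 and 9. It was the single member with its highest FPKM in WT 8. Its log2 fold change was 0.14 (SE 0.13, 95% interval -0.17 to 0.44, edgeR adjusted p = 0.539), and it was -0.18 with library totals alone.

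Mogat1 encodes a monoacylglycerol acyltransferase, which makes diacylglycerol without passing through phosphatidic acid. It was the lowest member in both groups. Mogat1 (ENSMUSG00000012187, chromosome 1 from 78510991 to 78538173, plus strand) was at 5.67, 4.87 and 4.97 FPKM in Prdx1 C52S 1, 2 and 4, against 2.82, 1.40 and 5.41 FPKM in WT 6, 8 and 9. WT 9 lay within the narrow Prdx1 C52S range and the other WT libraries below it. The means were 5.17 ± 0.438 and 3.21 ± 2.03 FPKM (SD, n = 3 each), with a log2 fold change of 0.91 (SE 0.49, 95% interval -0.25 to 2.08, edgeR adjusted p = 0.281). It was 0.52 without WT 8 and 1.58 without WT 9. The lowest library, WT 8, held 183 estimated counts, about 46 fragments. A gene on the other strand, BC035947, overlaps its exons and lay between 0.216 and 0.320 FPKM in Prdx1 C52S libraries and between 0.0733 and 0.230 in WT libraries.

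Among the phospholipid enzymes, Pemt makes phosphatidylcholine by methylating phosphatidylethanolamine, a route that is largely restricted to hepatocytes. Pemt (ENSMUSG00000000301, chromosome 11 from 59970614 to 60046485, minus strand) was at 94.8, 91.4 and 93.5 FPKM in Prdx1 C52S 1, 2 and 4, against 89.5, 85.1 and 86.2 FPKM in WT 6, 8 and 9. It was the steadiest member, with coefficients of variation of 1.83% in Prdx1 C52S and 2.65% in WT libraries, and the groups were separated by less than 2 FPKM. Its log2 fold change was 0.38 with TMM scaling (SE 0.14, 95% interval 0.06 to 0.70, edgeR adjusted p = 0.139) and 0.09 with library totals alone (edgeR adjusted p = 0.465). Pcyt1a encodes the CTP-using enzyme that limits the choline route. Pcyt1a (ENSMUSG00000005615, chromosome 16 from 32430921 to 32475070, plus strand) was at 14.3, 11.8 and 11.5 FPKM in Prdx1 C52S 1, 2 and 4, against 13.5, 11.8 and 11.7 FPKM in WT 6, 8 and 9. The groups overlapped nearly completely, and the log2 fold change of 0.30 with TMM scaling (SE 0.15, edgeR adjusted p = 0.25) was 0.02 with library totals alone. Lpcat3 encodes the enzyme that inserts polyunsaturated fatty acids into lysophosphatidylcholine. Lpcat3 (ENSMUSG00000004270, chromosome 6 from 124663027 to 124704418, plus strand) was at 38.5, 32.7 and 35.0 FPKM in Prdx1 C52S 1, 2 and 4, against 39.6, 32.2 and 32.4 FPKM in WT 6, 8 and 9. Its groups also overlapped, and the log2 fold change of 0.30 (SE 0.16, edgeR adjusted p = 0.281) was 0.02 with library totals alone.

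The first of the Pcyt1a start windows, chr16:32430671-32430970 on the plus strand of GRCm38.p6 (RefSeq), is shown because it holds the sterol regulatory element TCACNCCAC at -116 to -108, a match found in 1.24% of all windows and, among the 14 windows of the 8 members with an entry, only in 2 overlapping Pcyt1a windows. Its other capitals are GC boxes at -31 to -26 and -27 to -22, which overlap.
Pcyt1a start: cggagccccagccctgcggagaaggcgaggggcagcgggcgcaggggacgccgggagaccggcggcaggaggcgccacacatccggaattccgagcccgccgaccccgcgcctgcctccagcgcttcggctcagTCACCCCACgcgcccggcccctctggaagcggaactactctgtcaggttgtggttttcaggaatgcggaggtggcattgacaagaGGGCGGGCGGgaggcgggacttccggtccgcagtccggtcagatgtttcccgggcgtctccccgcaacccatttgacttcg
The mean FPKM ratio of Pcyt1a was 1.02.

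**Figure D3:**
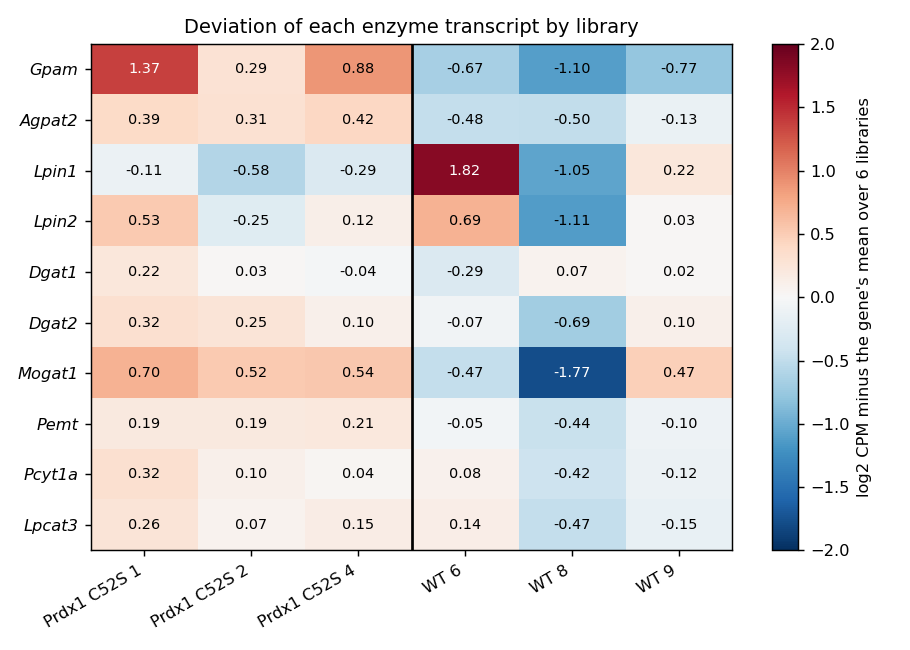
Deviation of each enzyme (rows) in each library (columns) from its mean over the 6 libraries, in log2 CPM after TMM scaling, with the Prdx1 C52S libraries left of the black line. Gpam, Agpat2 and Pemt are positive in every Prdx1 C52S library and negative in every WT library. Lpin1 is at 1.82 in WT 6, and WT 8 is the lowest library in 9 rows.

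The order of mean FPKM levels differed between the genotypes at Gpam and at other members. Agpat2 was above Pemt in Prdx1 C52S and below it in WT livers, and Pcyt1a changed places with Lpin1 in the same way. In Prdx1 C52S livers Dgat2, Gpam, Agpat2 and Pemt formed the top of the order at means of 138, 99.6, 98.4 and 93.2 FPKM, and each overlapped its neighbour in range. In WT livers Dgat2 (125), Pemt (86.9) and Agpat2 (72.2) were separate from each other without overlap, and Gpam came next at 35.8 FPKM, overlapping Lpcat3 at 34.7. Below these, Lpcat3, Lpin2, Pcyt1a, Lpin1, Dgat1 and Mogat1 followed in Prdx1 C52S livers. Of these neighbours, Lpcat3 and Lpin2 overlapped, and so did Lpin1 and Dgat1. In WT livers Lpcat3, Lpin2, Lpin1 and Pcyt1a each overlapped the next. WT Dgat1 did not overlap Pcyt1a, the next above it, but overlapped Lpin1, whose lowest library was at 6.33 FPKM, and Mogat1 was below Dgat1 without overlap.

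Ratios of genes within a library do not depend on scaling between libraries, and 3 of the 5 examined had groups that did not overlap. The share of such ratios over all pairs of genes was not computed. With 3 libraries against 3, the smallest two-sided p of an exact permutation test is 0.1, so that no ratio could pass 0.05. Gpam over Gpat4, its counterpart in the endoplasmic reticulum, was 5.33, 2.57 and 4.44 in Prdx1 C52S 1, 2 and 4, against 1.27, 1.35 and 1.28 in WT 6, 8 and 9. The difference in mean log2 ratio was 1.6, with an exact permutation p of 0.1 (0.167 adjusted over the 5 ratios). Agpat2 over Agpat1 was 20.7, 22.1 and 24.4 in Prdx1 C52S 1, 2 and 4, against 10.6, 8.02 and 11.03 in WT 6, 8 and 9, a difference of 1.19 on the log2 scale with the same exact p-values. Agpat1 itself lay between 4.161 and 4.878 FPKM in Prdx1 C52S and between 5.859 and 9.435 in WT libraries. It was thus lower without overlap, as were 36.7% of all genes, and the ratio holds both genes' differences. Lpin1 over Lpin2 was 0.267, 0.330 and 0.313 in Prdx1 C52S 1, 2 and 4, against 0.911, 0.433 and 0.475 in WT 6, 8 and 9. This log2 difference was -0.92, again at an exact p of 0.1, and -0.59 without WT 6, so that the ratio was lower in Prdx1 C52S also beside the other WT libraries alone. Dgat2 over Dgat1 was 21.4, 23.1 and 22.1 in Prdx1 C52S 1, 2 and 4, against 23.3, 11.8 and 21.1 in WT 6, 8 and 9 (log2 difference 0.30, exact permutation p = 0.5), and without WT 8 the difference was 0.002. Pemt over Pcyt1a had a log2 difference of 0.08 (exact permutation p = 0.4), with ratios of 6.63 to 8.13 in Prdx1 C52S libraries and 6.63 to 7.36 in WT libraries.

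Within the first step, Gpam made up 75.9 ± 6.59% of the summed FPKM of the 4 glycerol 3-phosphate acyltransferases in Prdx1 C52S libraries and 51.5 ± 0.519% in WT libraries (SD, n = 3 each). Gpat4 itself was at 26.1, 24.7 and 21.7 FPKM in Prdx1 C52S 1, 2 and 4, against 29.9, 25.7 and 27.2 FPKM in WT 6, 8 and 9, with overlapping groups. The summed FPKM of the step was 171, 92.7 and 124 in Prdx1 C52S 1, 2 and 4, against 73.8, 66.5 and 68.4 in WT 6, 8 and 9. In the second step Agpat2 held 72.5 ± 1.01% in Prdx1 C52S and 64.8 ± 2.46% in WT libraries, and Agpat1 3.25 ± 0.257% and 6.71 ± 1.43% in the same order of genotypes. Among lipins, Lpin2 held 72.5 ± 2.92% in Prdx1 C52S and 58.6 ± 6.61% in WT libraries. Dgat2 held 95.7 ± 0.163% of its step in Prdx1 C52S and 94.5 ± 2.01% in WT libraries, where WT 8 alone lay at 92.2%.

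**Figure D4:**
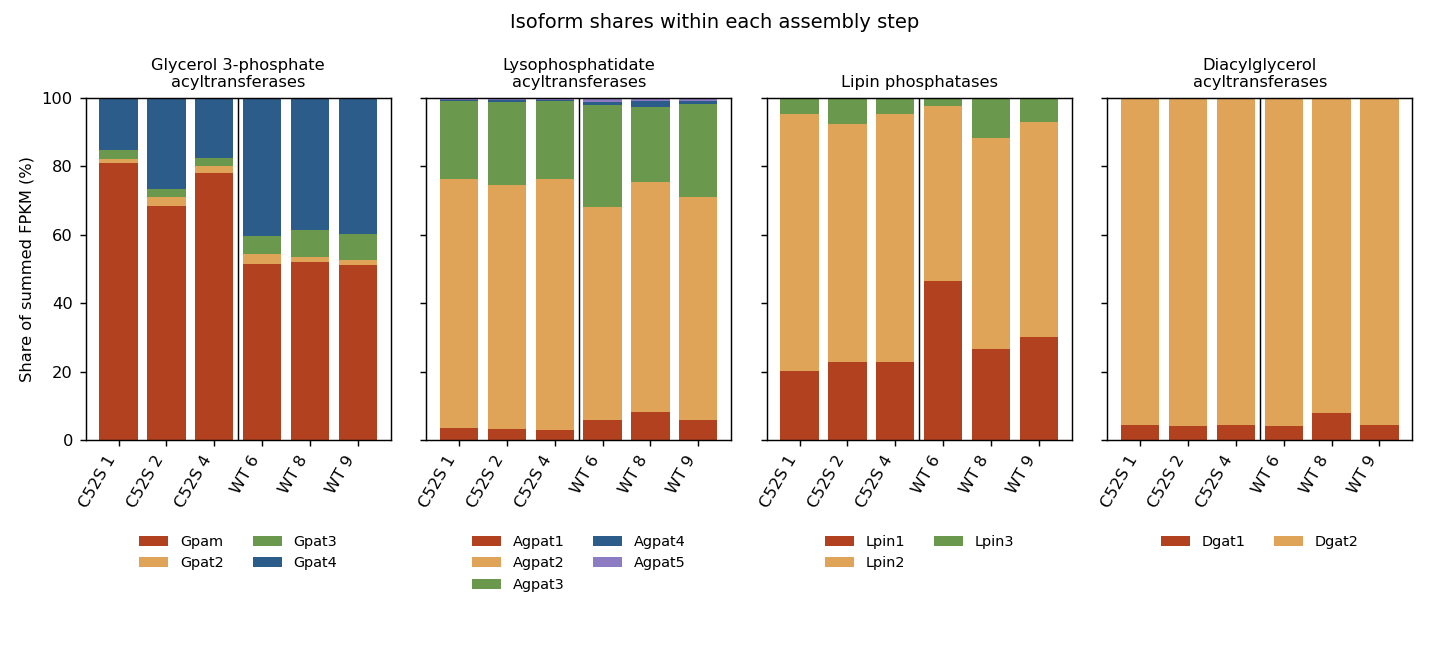
Share of summed FPKM in percent (y axis) held by each isoform of 4 assembly steps in each library (x axis), Prdx1 C52S left and WT right of the black line. The Gpam share is 68.5 to 81% in Prdx1 C52S and 51.1 to 52.1% in WT libraries, while the Dgat2 share is over 92% in all libraries.

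The wider pathway was read from 11 lists with 56 genes in the table, all tested. In edgeR 0 of the 56 were called, 16 had an unadjusted p under 0.05 with a positive and 11 with a negative fold change (11.5% and 14.8% of all genes), and the median log2 fold change was 0.09, beside -0.03 over all genes tested. Without WT 8, edgeR called 4 of the 56 higher and 1 lower, beside 2.7% and 1.94% of all genes. With all libraries DESeq2 called 11 higher and 9 lower, beside 7.39% and 9.1% of all genes. Voom with library quality weights called 9 higher and 2 lower, beside 5.4% and 5.31% of all genes. Upstream of the acyltransferases, the 3 genes of glycerol 3-phosphate supply had a median of 0.37. Gpd1, which makes glycerol 3-phosphate, was at 176, 172 and 216 FPKM in Prdx1 C52S 1, 2 and 4, against 92.3, 93.6 and 146 FPKM in WT 6, 8 and 9 (log2 fold change 1.03, SE 0.26, edgeR adjusted p = 0.0934). Gk, the glycerol kinase, was at 0.37 (edgeR adjusted p = 0.378). The Gpd1 groups did not overlap, as for Gpam and Agpat2 downstream of it. Over all genes tested, FPKM ranges did not overlap for 6.09% higher and 36.7% lower in Prdx1 C52S.

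The remaining isoforms of the acylation and phosphatase steps had fold changes of both signs. Of the 4 other lysophosphatidic acid acyltransferases, Agpat1 had a log2 fold change of -0.45 (edgeR adjusted p = 0.106) and Agpat4 of -1.06 (edgeR adjusted p = 0.109). Both were lower in FPKM in each Prdx1 C52S library than in each WT library, and so was Agpat5. With TMM scaling the log2 fold change of Agpat5 was 0.001. Over all genes, 36.7% were lower in FPKM without overlap. Of the 4 other phosphatidic acid phosphatases, Plpp2, a membrane lipid phosphate phosphatase, was at 12.5, 9.59 and 12.3 FPKM in Prdx1 C52S 1, 2 and 4, against 19.0, 29.9 and 19.5 FPKM in WT 6, 8 and 9. Its log2 fold change was -0.68 (edgeR adjusted p = 0.0798), and the fit without WT 8 called it at -0.55 (edgeR adjusted p = 0.0483). Plpp1 was at -0.36 (edgeR adjusted p = 0.139). The FPKM ranges of Plpp2 and Plpp1 did not overlap, both lower in Prdx1 C52S. Of the 3 other glycerol 3-phosphate acyltransferases, Gpat2 was at 0.91 (edgeR adjusted p = 0.177) and Gpat3 at -0.28 (edgeR adjusted p = 0.511). Mogat2 stayed under 1 FPKM in each library, at -0.13.

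Of 7 genes of phosphatidylethanolamine and phosphatidylserine synthesis, 2 had an unadjusted edgeR p under 0.05, both positive. Selenoi, the ethanolamine phosphotransferase, was at 4.66, 5.28 and 5.09 FPKM in Prdx1 C52S 1, 2 and 4, against 3.85, 3.61 and 3.42 FPKM in WT 6, 8 and 9 (log2 fold change 0.75, SE 0.13, edgeR adjusted p = 0.0645, and adjusted p = 0.0232 without WT 8). Pcyt2, the counterpart of Pcyt1a in the ethanolamine route, was at 111, 115 and 112 FPKM in Prdx1 C52S 1, 2 and 4, against 100, 91.6 and 95.2 FPKM in WT 6, 8 and 9 (log2 fold change 0.52, edgeR adjusted p = 0.115, and adjusted p = 0.0446 without WT 8). Both had groups that did not overlap. Etnk1, Ptdss2 and Pisd of the same list did not overlap either, and were lower in FPKM in Prdx1 C52S. With TMM scaling their log2 fold changes were 0.09, -0.15 and -0.05 in that order. Over all genes, 6.09% were higher and 36.7% lower without overlap. In the choline route 3 of 7 genes had positive and 4 negative fold changes, at a median of -0.02, or 0.23 without WT 8. Cept1 was at 0.51 (edgeR adjusted p = 0.107). Slc44a1, a choline transporter, was at 0.27 (edgeR adjusted p = 0.113) with TMM scaling but at -0.04 with library totals alone. Pcyt1b was at -2.04 (edgeR adjusted p = 0.119), or -1.06 without WT 8. Slc44a2 was at -0.865 (edgeR adjusted p = 0.152), or -0.42 without WT 8, Chka at -0.13 and Chkb at -0.02. The FPKM ranges of Pcyt1b, Slc44a2 and Chkb did not overlap, lower in Prdx1 C52S, and those of Chpt1 did not overlap, higher. The choline phosphotransferase Chpt1, named after its value was seen, was at 0.63 with all libraries and passed without WT 8 (edgeR adjusted p = 0.0394). Of 7 genes of CDP-diacylglycerol and cardiolipin, Cds1 was at -0.99 (edgeR adjusted p = 0.111) and the cardiolipin synthase Crls1 at 0.39 (edgeR adjusted p = 0.13). Cds1 and Cdipt had FPKM ranges that did not overlap, lower in Prdx1 C52S, though Cdipt had a log2 fold change of -0.05 with TMM scaling.

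The 8 other lysophospholipid acyltransferases had a median of -0.72, or -0.45 without WT 8, beside Lpcat3 at 0.30. Of the 8, 2 were positive and 6 negative. Lclat1 was at 0.27, near Lpcat3, or at -0.03 with library totals alone, while Lpgat1 was at 0.065 and Mboat7 at -0.001. Lpcat1 had a log2 fold change of -0.71 (edgeR adjusted p = 0.101) and Lpcat2 of -0.73 (edgeR adjusted p = 0.113). The FPKM ranges of Lpcat1, Lpcat2, Lpcat4, Mboat1 and Mboat7 did not overlap, all lower in Prdx1 C52S, as for 36.7% of all genes. Mboat1, Lpcat4 and the choline route gene Pcyt1b, all 3 named after their values were seen, were highest in WT 8, as were all 6 bile duct markers. This was not particular to them. Lpcat1, Lpcat2, Mboat2, Mboat7 and Lclat1 were also highest in WT 8, and so were Agpat1 and Plpp2 of other lists. Mboat1 was at 0.259, 0.112 and 0.0697 FPKM in Prdx1 C52S 1, 2 and 4, against 0.549, 3.64 and 0.348 FPKM in WT 6, 8 and 9. The bile duct keratin Krt19 was at 1.59, 0.554 and 0.507 FPKM in Prdx1 C52S 1, 2 and 4, against 3.97, 30.9 and 2.08 FPKM in WT 6, 8 and 9. All 6 bile duct markers had negative log2 fold changes, and all 7 macrophage markers too. The macrophage markers summed to 147 to 180 FPKM in Prdx1 C52S and 362 to 416 FPKM in WT libraries. All 6 Kupffer cell markers had positive log2 fold changes, at a median of 0.34, or -0.18 without WT 8. The part of these cell types in the acyltransferase levels was not tested.

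Methyl donor genes and transcription regulators of the pathway had median log2 fold changes of 0.31 and 0.44, or 0.25 and 0.16 without WT 8. All 5 methyl donor and choline genes had positive fold changes with TMM scaling, while Mat1a was at -0.04 with library totals alone. Gnmt, which uses the same methyl donor as Pemt, was at 589, 761 and 533 FPKM in Prdx1 C52S 1, 2 and 4, against 397, 452 and 421 FPKM in WT 6, 8 and 9 (log2 fold change 0.86, edgeR adjusted p = 0.0819, and adjusted p = 0.0424 without WT 8). Bhmt, which remakes methionine from betaine, was at 0.96 (edgeR adjusted p = 0.118). Of 7 regulators, Srebf1, a transcription factor of lipogenic genes that include Gpam, was at 125, 116 and 112 FPKM in Prdx1 C52S 1, 2 and 4, against 40.4, 90.1 and 100 FPKM in WT 6, 8 and 9 (log2 fold change 0.91, edgeR adjusted p = 0.13). Its groups did not overlap, and WT 6 was its lowest library. Mlxipl, the carbohydrate-responsive factor, was at 0.59 (edgeR adjusted p = 0.149).

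**Figure D5:**
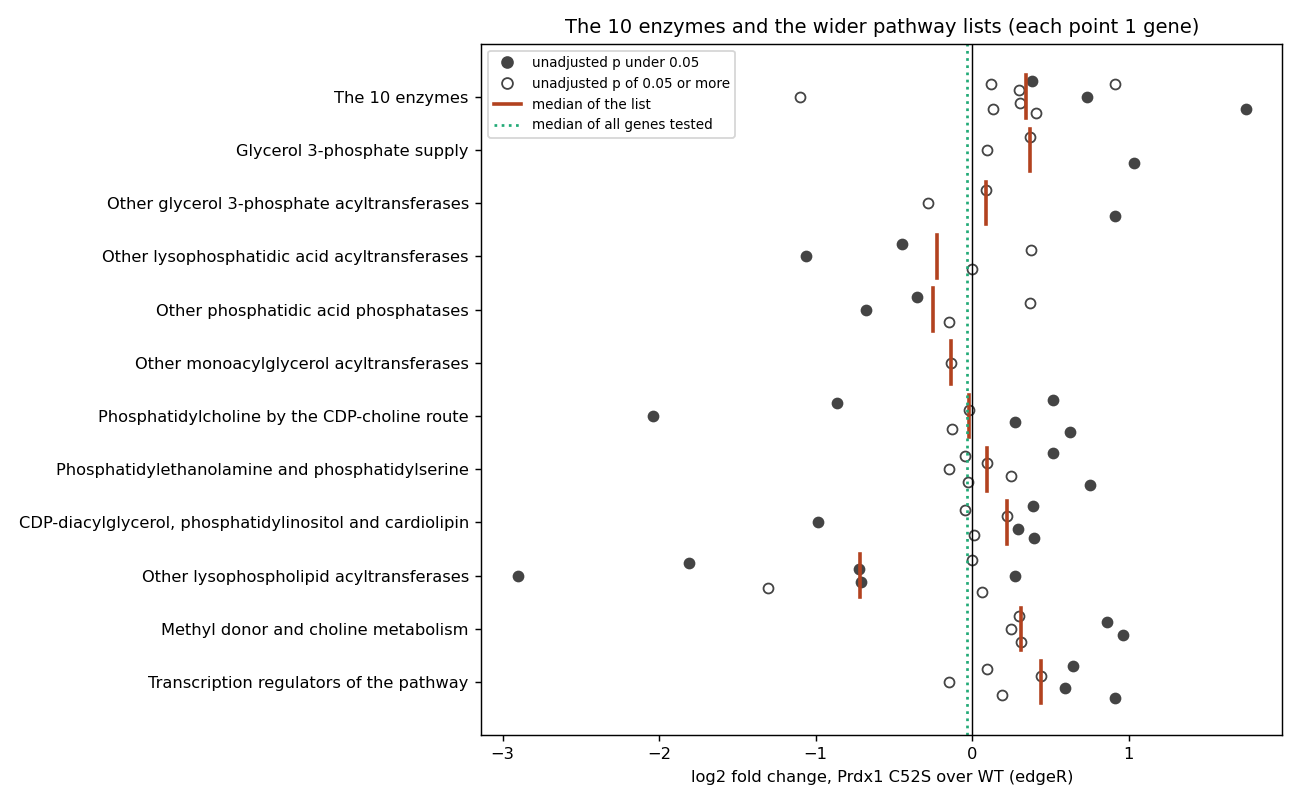
Log2 fold change of Prdx1 C52S over WT (x axis) for the 10 enzymes and 11 wider lists (y axis), 1 point a gene, filled where the unadjusted edgeR p is under 0.05, with red bars for list medians and a dotted line for the median of all genes tested. The 10 enzymes have a median of 0.34 and the other lysophospholipid acyltransferases of -0.72.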

How the data were processed

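RNA was sequenced from 6 liver libraries, 3 of Prdx1 C52S and 3 of WT mice. Per the labels' protocols, RNA was poly(A)-selected, second strands were removed and adapters carried molecular identifiers. Per the submitters' processing notes, StringTie 1.3.4d, HISAT2 2.0.4 and cutadapt 1.9 were used, as were edgeR, DESeq2 and UMI-tools, with no roles stated, and the build was mm9. The deposited gene coordinates are those of GRCm38 instead (5 of 10 members identical to GENCODE M21, the others differing at 1 end). The authors deposited FPKM values, and beside them estimated counts, as the headers name them. The commonest low count is 4 (6204 values), and 1 fragment was taken as about 4 counts. No pair of libraries was identical.

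Rounded counts entered edgeR 4.0.16 under R 4.3.3 (filterByExpr, TMM, robust quasi-likelihood F-tests, two-sided, Benjamini-Hochberg over 18931 genes, threshold 0.05). Alternatives were RLE factors, library totals, DESeq2 1.42.0, voom and limma 3.58.1 on log2(FPKM + 1) and log2(FPKM + 0.1), no filter, counts divided by 4, and leaving out each library. The fits were also run on simulated counts, with less spread between libraries than in these data and with no library set apart. That run therefore cannot show how the fits behave on these data. Exact permutation tests used scipy 1.17.1. The members and lists were chosen with earlier results of these data known. Named genes are the members, the genes with the smallest p of each wider list (at most 2), and the 3 nearest in pattern to the member with the largest fold change. Marker genes and the isoforms used in ratios are named beside the results they touch. Chpt1, Mat1a, Mboat1, Lpcat4 and Pcyt1b were named after their values were seen. So were Agpat5, Slc44a2, Chka, Chkb, Etnk1, Ptdss2, Pisd, Cdipt, Lclat1, Lpgat1, Mboat2 and Mboat7. Exons of 4 members (Agpat2, Mogat1, Pcyt1a and Lpcat3) overlap genes on the other strand. Some listed marker genes were not analysed here.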

Additional observations from a re-analysis of the deposited data

How the results depend on the processing

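The counts of calls depended on the tool and on WT 8. Over all genes, edgeR with TMM or RLE factors called 0 higher and 0 lower, library totals 35 and 125, no filter on low counts 105 and 91, counts divided by 4 gave 43 and 40, DESeq2 1399 and 1723, voom 1023 and 1006, limma on log2(FPKM + 1) 39 and 94, and on log2(FPKM + 0.1) 59 and 221. Leaving out 1 library gave 0 to 522 higher and 0 to 375 lower, the most without WT 8. Members called higher numbered 3 with DESeq2, 2 with voom, 1 each with no filter and with log2(FPKM + 0.1), and 0 to 1 when leaving out 1 library. Wider pathway genes called higher numbered 11 with DESeq2, 9 with voom, 1 with no filter and 0 to 4 when leaving out 1 library. Those called lower numbered 9 with DESeq2, 2 with voom and 0 to 1 when leaving out 1 library.

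Of 140 alternative member fold changes, 123 kept their direction and stayed uncalled, 8 kept it and were called, and 9 changed sign. Lpin2 was -0.12 with library totals, -0.25 with voom, -0.029 with log2(FPKM + 1), -0.027 with log2(FPKM + 0.1), and from -0.22 (without WT 8) to 0.599 (without WT 6) when leaving out 1 library, with -0.10 without Prdx1 C52S 1. Dgat1 was -0.18 with library totals, -0.13 with log2(FPKM + 1) and -0.15 with log2(FPKM + 0.1). The cause was not tested. No ratio or share changed sign under the alternatives run. No paired analysis was possible because the genotypes share no replicate number. The lowest member count, 183 for Mogat1 in WT 8, sets the weakest depth behind a member value.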
